A study of Caenorhabditis elegans with 6 samples.

Results

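Confident A-to-G mismatch calls that remained in germline RNA without ADR-2 are described here. They were chosen by the deposited confidence of each position in the merged adr-2(-) list, which had to be at least 0.75, and 3160 of the 198578 positions listed for adr-2(-) met that minimum (1.59%). The same minimum kept 5035 of 91169, 7475 of 183393 and 5192 of 101207 listed positions in wild-type replicates 1, 2 and 3 (5.52%, 4.08% and 5.13%). The 4 lists together named 491905 different positions.

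Germlines were dissected from young adult hermaphrodites of Caenorhabditis elegans grown at 20°C and collected 60 h after egg-lay, and polyadenylated RNA was sequenced in stranded libraries. The mutant carried the adr-2(ok735) allele (strain BB20), and the reference strain was N2, the wild type, with 3 replicates each. The adr-2(-) calls were deposited as 1 list named as merged and the wild-type calls as 1 list per replicate, which leaves the mutant calls without a measure of replicate spread. The methods say that replicates were analysed separately and do not describe the merging. At shared positions, coverage in wild-type replicates 1, 2 and 3 was a median of 0.437, 0.894 and 0.462 times that of the adr-2(-) list, and the reads over genes of these replicates were 0.425, 0.910 and 0.460 times the sum of the 3 adr-2(-) libraries. Intervals given below are exact 95% binomial intervals, which cover counting error only, since reads without molecular identifiers are not independent molecules.

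ADARs bind double-stranded RNA and deaminate adenosine to inosine, which is read as guanosine, so editing appears as A-to-G on the strand of the transcript. ADR-2 is the ADAR that carries out this reaction in C. elegans, and many of its known targets are long hairpins in 3′ untranslated regions (UTRs) and introns. Callers such as SAILOR list every A-to-G mismatch that passes their read filters and give each a confidence, so a list can be compared with one from a strain without the enzyme.

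The strain labels were checked at the targeted gene. adr-2 had 29.2, 61.0 and 35.6 normalized counts in adr-2(-) germlines and 3020, 2822 and 2852 normalized counts in wild-type germlines. The adr-2(-) libraries held 33658937 to 38310069 reads over genes and the wild-type libraries 44991286 to 96397215, the deepest being wild-type replicate 2. The 12 germline marker genes were detected in every library, with summed levels of 374046 to 449541 normalized counts in adr-2(-) and 440167 to 458269 in wild type. The library labelled adr-2(-) replicate 1 stood apart in 4 muscle and 5 intestine genes, which summed to 8382 and 7995 normalized counts there, against at most 1176 and 1284 in the other adr-2(-) replicates and 1074 and 1717 in wild type. Within these lists unc-54, myo-3, vit-2, vit-6 and act-5 were high in it, while myo-1 and myo-2 had 2.54 and 1.27 normalized counts. The intestine gene ges-1 was not set apart in this library, at 35.6 against 12.6 to 36.8 in the others. elt-2 was low in all, at 7.62 in this library and at most 2.90 in the others. Of 4 hypodermis genes only col-19 was high in it (2945, against at most 728 in the other libraries), with dpy-7 and rol-6 at 0 and bli-1 at 1.27.

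Most of the adr-2(-) calls rested on a lone read. In 2680 calls 1 read carried the mismatch (84.8%), in 328 calls 2 reads did (10.4%) and in 61 calls 3 reads did (1.93%). Only 91 calls had 4 or more such reads (2.88%), and 22 of these had 10 or more. The wild-type calls had another make-up, with 1 read at 38.4%, 38.6% and 33.4% of calls and 4 or more reads at 45.5%, 38.9% and 47.7% in replicates 1, 2 and 3.

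The confidence set which low counts passed. Except at positions with the mismatch in every read, where it was 0, it equalled the probability that the share of edited reads exceeds 1%, computed from a beta distribution with the edited and unedited read numbers as its parameters. On that scale 1 edited read reached the minimum at up to 29 reads of coverage (confidence 0.755) and missed it at 30 reads (0.747). With 2 edited reads the limit lay at 97 reads. Calls in uggt-1 and rnp-7, with 2 of 97 reads, lay just inside the minimum at a confidence of 0.751, and positions in flh-2 and spe-15, with 1 of 30 reads, lay just outside at 0.747.

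Coverage and edited share of the calls followed this rule and are given as a description. The calls had a median coverage of 15 reads (interquartile range 9 to 24, range 5 to 39686), against a median of 875 reads over all positions listed for adr-2(-). Coverage was 20 reads or more at 1170 calls (37.0%) and 100 reads or more at 90. The median edited share was 6.67% (interquartile range 4.35% to 12.5%). In 11 calls at least 50% of reads carried the mismatch, and in 2 of these at least 90% did.

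**Figure D1:**
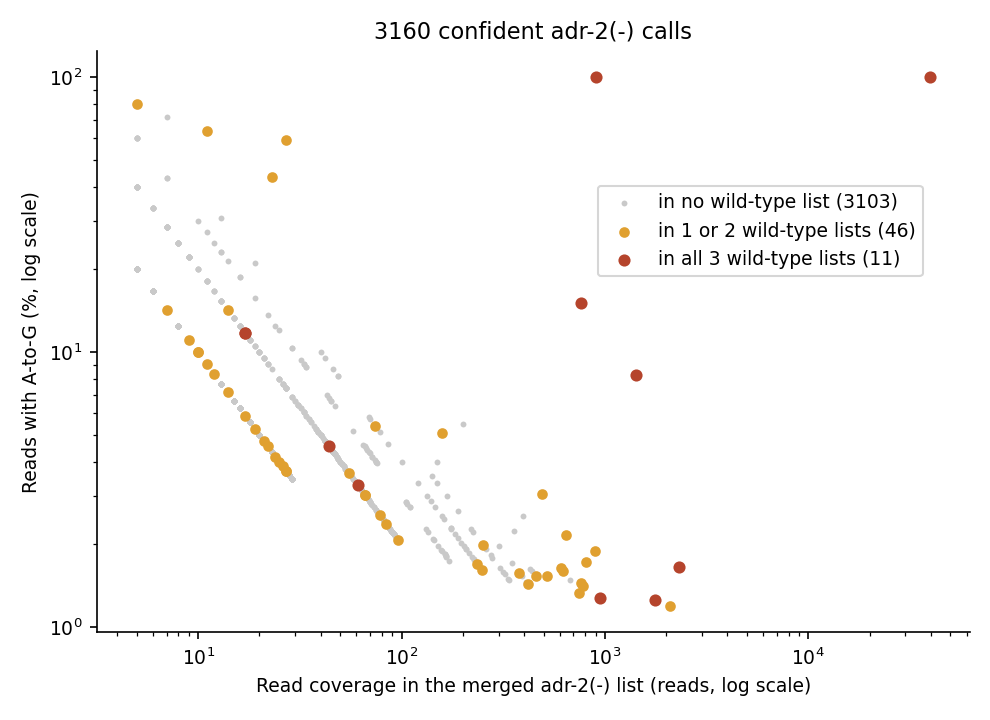
Read coverage (x axis, reads, log scale) and percent of reads with A-to-G (y axis, log scale) of each of the 3160 confident adr-2(-) calls, coloured by the number of wild-type lists that hold the same position. The lowest diagonal of points is the 2680 calls with 1 edited read, and the calls found in all 3 wild-type lists (11) lie mostly to the right, at high coverage.

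Coding sequence held more of the adr-2(-) calls than any other region. Of the 3160 calls 1713 were coding (54.2%, interval 52.5% to 56.0%), 688 intergenic (21.8%), 354 intronic (11.2%) and 265 in 3′ UTRs (8.39%, interval 7.44% to 9.41%), while 80 lay in other exons and 60 in 5′ UTRs. The 3′ UTR share of the wild-type calls was 35.3%, 35.0% and 35.0%, so the adr-2(-) share lay below all 3 replicates. The 3′ UTR share among all positions listed for adr-2(-) was 8.13%. The coding share was 35.9%, 24.3% and 44.5% in wild type, and these replicates differed among themselves by more than they did in the 3′ UTR.

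**Figure D2:**
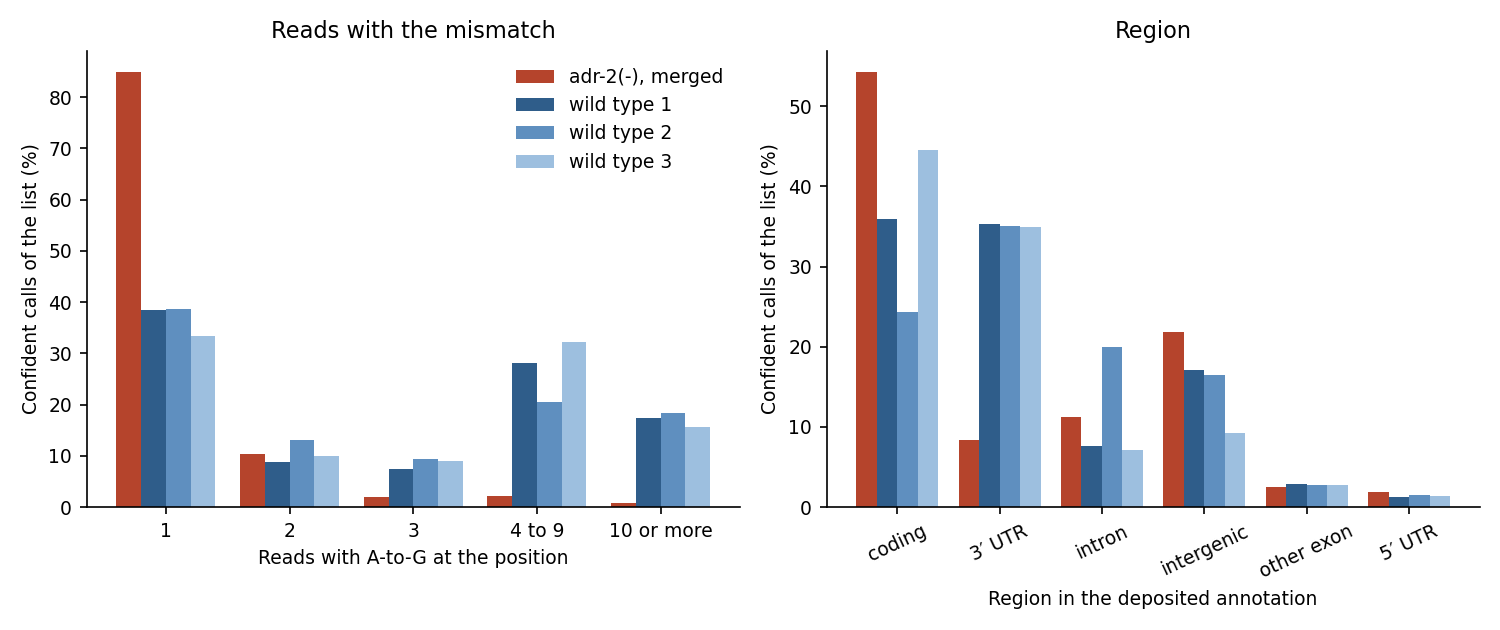
Confident calls of the merged adr-2(-) list and of wild-type replicates 1, 2 and 3 by the number of reads with A-to-G (left) and by region (right), each as percent of the calls of that list. The adr-2(-) bar is highest at 1 read (84.8%) and low in the 3′ UTR (8.39%), where the wild-type bars stand at 35.0% to 35.3%.

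How often a listed position became a confident call differed among regions along with coverage. Of the intronic positions listed for adr-2(-) 60.6% were confident, of the intergenic ones 35.0%, of those in 5′ UTRs 10.1%, of those in 3′ UTRs 1.64% and of the coding ones 0.966%. Listed intronic positions had a median coverage of 21 reads, and listed coding positions of 887 reads. The part that coverage played in these shares was not tested.

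Strand was examined next, because the libraries keep it. All 2472 calls assigned to a gene lay on that gene's strand. Of the 688 calls given as intergenic, 608 lay inside a gene annotated on the opposite strand (88.4%, interval 85.7% to 90.7%) and 73 lay outside genes of both strands. Most adr-2(-) calls given as intergenic were therefore antisense to a gene. The same share of the other listed intergenic positions is not given here, so it cannot be read as particular to these calls. Over all calls the plus strand held 50.3%.

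Within coding sequence the calls showed little preference for a place in the codon. Codon positions 1, 2 and 3 held 31.9%, 36.2% and 31.9% of the 1708 coding calls placed in a reading frame, against 29.3%, 38.0% and 32.7% of the other listed coding positions. Within 5 nt of an annotated exon end of their gene lay 3.98% of 2436 calls, intronic ones included, and 3.95% of the other listed positions. Protein-coding genes held 2392 of the calls given a gene and pseudogenes 69.

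The share of listed positions that passed was highest on the X chromosome, where their coverage was lowest. Calls numbered 624 on chromosome I, 451 on II, 563 on III, 475 on IV, 437 on V, 604 on X and 6 on mitochondrial DNA. On the X 21.5% of the 2808 listed positions were confident, against 1.31% of the 195314 autosomal ones. Most X-linked genes are expressed at a low level in the adult germline, and listed positions had a median of 84 reads on the X and 884 reads on the autosomes. Among listed positions with coverage of at most 29 reads, 549 of 550 on the X and 2268 of 2271 on the autosomes were confident (both 99.8% or more). At such coverage the X and the autosomes thus had like shares. Since coverage enters the confidence, these values are a description.

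**Figure D3:**
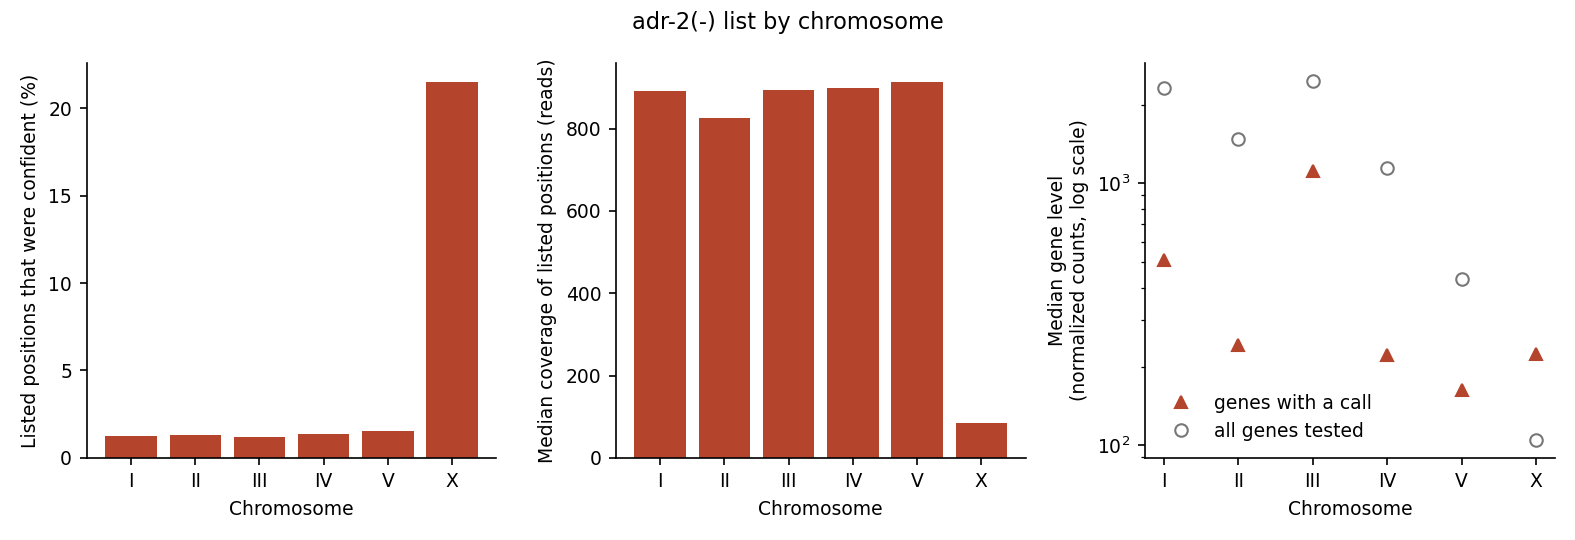
Positions of the merged adr-2(-) list by chromosome: percent of listed positions that were confident (left), their median read coverage (middle) and the median gene level (right, normalized counts, mean of the 6 libraries, log scale), with triangles for genes with a call and open circles for all genes tested. The X has the highest percent, 21.5%, and the lowest median coverage, 84 reads.

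Genes with a call had a median level of 224 normalized counts on the X and medians of 163 to 1120 on the autosomes, so the X lay within their range. All tested genes had a median of 105 on the X, lower than the 432 to 2463 of the autosomes. In wild type the X also had high shares of listed positions that passed, 44.3%, 26.7% and 40.0% in replicates 1, 2 and 3.

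The adr-2(-) calls were mostly isolated. Only 131 lay within 50 nt of another on the same strand (4.15%), and the median distance to the nearest was 5884.5 nt. In wild type 43.0%, 59.1% and 40.9% of the calls lay within 50 nt of another, at median distances of 581, 9 and 595 nt. The adr-2(-) calls formed 59 pairs and 3 larger groups, while the wild-type replicates had 178, 392 and 187 groups of 3 or more and largest groups of 58, 88 and 52 calls. In 44 of the 59 adr-2(-) pairs both calls had 1 edited read.

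Each of the 3 larger groups was looked at by itself. Y76B12C.6 held 6 calls within 62 nt of an intron (WS275 coordinates, IV:1988804-1988865), each with 1 edited read of 12 or 13, and no wild-type replicate had a confident call there. C35E7.6 held 4 calls within 48 nt of its 3′ UTR (I:10819741-10819788), each with 1 edited read of 6 to 9, where wild-type replicates 1, 2 and 3 had 3, 0 and 0 confident calls. Y54E10BR.2 held 3 calls within 33 nt of its 3′ UTR (I:3034567-3034599), where the wild-type replicates had 18, 19 and 13. Only this last group therefore lay in a stretch with confident calls in every wild-type replicate.

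Recurrence in wild type was measured at the same chromosome, position and strand. Of the 3160 adr-2(-) calls 57 were listed in at least 1 wild-type replicate at any confidence (1.80%, interval 1.37% to 2.33%) and 11 in all 3 (0.348%). In replicates 1, 2 and 3 the numbers were 23, 40 and 23. Leaving out wild-type replicate 2, the deepest, lowered the first share to 1.08%. At the minimum confidence 41 calls recurred in at least 1 replicate, 9 in at least 2 and 6 in all 3. The other 195418 positions listed for adr-2(-), which were deeply covered, appeared in at least 1 wild-type list in 23.3% of cases.

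Recurrence and coverage both differed widely with the number of edited reads. Recurrence was 16 of 2680 among calls with 1 edited read (0.597%), 11 of 328 with 2 (3.35%), 0 of 61 with 3, 11 of 69 with 4 to 9 (15.9%) and 19 of 22 with 10 or more (86.4%, interval 65.1% to 97.1%). In the same order, the median coverage of these calls was 14, 45, 58, 190 and 762 reads. The part of coverage in recurrence was not tested. Wild-type calls with 1 edited read also recurred seldom, as 1.24% to 3.75% of them were listed in another wild-type replicate and 0.451% to 0.634% in the adr-2(-) list. Of all wild-type calls 22.9% to 35.9% were listed in another wild-type replicate, and 5.18%, 2.47% and 6.20% in the adr-2(-) list. A list names only positions with at least 1 edited read, so a position missing from a wild-type list may have been covered there without a mismatch.

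Both calls with the mismatch in at least 90% of adr-2(-) reads were close to 100% in wild type too. In the mitochondrially encoded gene WBGene00010964, at MtDNA position 8429 on the plus strand and in the last codon position, 39680 of 39686 reads carried the mismatch in adr-2(-) (99.98%), against 100%, 99.99% and 99.92% in wild-type replicates 1, 2 and 3. In cyp-31A2, a cytochrome P450 gene, position 11405088 of chromosome IV had 905 of 907 reads in adr-2(-) (99.78%), against 100%, 99.5% and 100% in wild type. Because positions at 100% have a confidence of 0, these calls counted as confident in 2 and 1 of the wild-type replicates. A related gene, cyp-31A3, is also in the annotation, and how reads were shared between the pair was not examined.

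Intermediate shares that recurred were found in coding exons. glh-2, which encodes a Vasa-like RNA helicase of the germ granules, had the mismatch at I:6516275 in 118 of 1427 reads in adr-2(-) (8.27%, interval 6.89% to 9.82%), against 5.48%, 5.76% and 5.46% in wild type (5.57% ± 0.17, SD, n = 3). The adr-2(-) share lay above all 3 wild-type shares, but its interval overlapped each of theirs. The intervals were 3.84% to 7.54%, 4.50% to 7.24% and 3.72% to 7.71% in wild-type replicates 1, 2 and 3. The rule also chose the position on its adr-2(-) reads. How reads were shared with glh-1, a near relative of glh-2, was not examined. F10E7.2 had the mismatch at II:7123751 in 115 of 762 reads in adr-2(-) (15.1%, interval 12.6% to 17.8%), against 25.9%, 23.6% and 16.3% in wild type. There the adr-2(-) share lay below all 3, although its interval reached the lowest of them.

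nsph-3.1, a member of the nematode-specific peptide family h, held a pair of high shares. At IV:10950006 the mismatch was in 16 of 27 reads in adr-2(-) (59.3%), against 57.5% in wild-type replicate 2. At IV:10950941 it was in 10 of 23 reads in adr-2(-) (43.5%), against 43.8% in wild-type replicate 2. Neither position was listed for the other wild-type replicates. Its level varied within each strain, with 272, 59.7 and 24.1 normalized counts in adr-2(-) and 88.4, 185 and 12.6 in wild type. How reads were shared with its relative nsph-3.2 was not examined.

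The other calls among the 10 with most edited reads had adr-2(-) shares of 1.19% to 3.05%. C53H9.2 had 38 of 2303 reads in adr-2(-) (1.65%), against 2.13%, 1.02% and 0.381% in wild type. C16C10.4 had 22 of 1755 (1.25%) in adr-2(-), against 0.138%, 1.23% and 0.973%. W08E12.7 had 25 of 2093 in its 3′ UTR (1.19%), against 1.40% and 0.75% in wild-type replicates 2 and 3. msh-2, which encodes a mismatch repair protein, had 17 of 897 (1.90%) in adr-2(-), against 0.563% and 0.324% in replicates 2 and 3. Y48C3A.20 had 15 of 492 in its 3′ UTR (3.05%), against 2.57% in replicate 2. Where these positions were listed in wild type, the share was at most 2.57%.

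Of the 22 calls with 10 or more edited reads, 3 were in no wild-type list. They lay in vab-10, which encodes a spectraplakin (11 reads, 5.47%), in smg-6, a gene of nonsense-mediated mRNA decay (10 reads, 2.54%), and in dcp-66 (10 reads, 1.48%). Among calls with at least 20 reads of coverage, the highest shares outside the genes already named were in tub-2 (13.6%, 3 of 22 reads), zyx-1, the zyxin gene (12.5%, 3 of 24), set-20, which encodes a SET-domain protein (12.0%, 3 of 25), igcm-3 and sprr-2 (10.3%, 3 of 29 each). None of these 5 was listed in wild type, and with 3 edited reads the intervals were wide, 2.91% to 34.9% in tub-2.

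Positions called reproducibly in wild type were then compared. Confidence of at least 0.75 was reached in all 3 wild-type replicates at 1098 positions in 75 genes. Of these 86 were listed for adr-2(-) and 6 were confident there. Besides glh-2 and F10E7.2, the 6 included 4 positions in 3′ UTRs, each with 2 edited reads in adr-2(-).

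In Y54E10BR.2, position 3034567 of chromosome I had the mismatch in 11.8% of 17 reads in adr-2(-), against 78.7% of 47, 71.4% of 77 and 66.7% of 39 reads in wild type. Position 3034569 had 11.8% of 17 reads in adr-2(-), against 49.2% of 61, 51.2% of 80 and 33.3% of 42 in wild type. Position 3034599 had 3.28% of 61 reads in adr-2(-), against 21.4% of 112, 18.1% of 149 and 8.11% of 111 in wild type. At each of these the adr-2(-) share lay below all 3 wild-type shares. aps-3, which encodes a small subunit of an adaptor complex, showed the same order at I:1155232, with 4.55% of 44 reads in adr-2(-), against 21.1% of 242, 23.6% of 615 and 14.0% of 301 in wild type.

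Coverage at the 4 positions in 3′ UTRs was lower in the merged adr-2(-) list than in each wild-type replicate, whose coverage had medians of 3.18, 4.62 and 2.38 times that of adr-2(-) in replicates 1, 2 and 3. At the coding positions of glh-2 and F10E7.2 the medians were 0.434, 0.850 and 0.353 times, close to those of all other shared positions given above. At the 19 reproducible aps-3 positions listed for adr-2(-) they were 1.06, 2.44 and 0.685 times, and at all 86 reproducible positions 0.211, 0.599 and 0.247 times, so the pattern of aps-3 and Y54E10BR.2 was not general. The rule favours low adr-2(-) coverage, and its part was not tested. The level of the gene was not called different, with 3483, 3384 and 3534 normalized counts of Y54E10BR.2 in adr-2(-) and 3366, 3107 and 3216 in wild type (log2 fold change 0.10, SE 0.06, limma adjusted p = 0.537).

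Nearness to wild-type calls was then measured. Within 50 nt of a reproducible wild-type position lay 7 calls, the 6 above and 1 in the 3′ UTR of F48E8.4, 19 nt away, with 1 edited read of 11. That was 0.222% of the calls, and 243 of the other positions listed for adr-2(-) lay as near (0.124%). The 75 genes with reproducible positions held 33 of the adr-2(-) calls, in 24 genes. Within 50 nt of a confident call of any wild-type replicate lay 257 calls (8.13%).

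**Figure D4:**
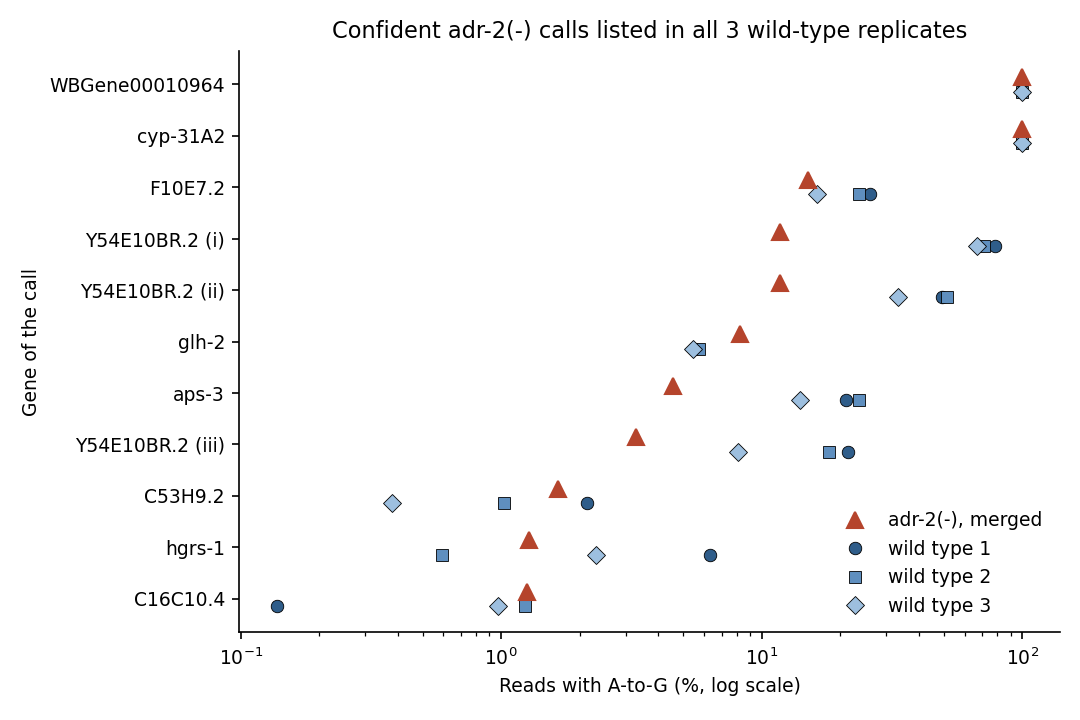
Percent of reads with A-to-G (x axis, log scale) at the 11 confident adr-2(-) calls listed in all 3 wild-type replicates: triangles, merged adr-2(-) list; circles, squares and diamonds, wild-type replicates 1, 2 and 3; the 3 positions of Y54E10BR.2 are numbered in genomic order. The adr-2(-) share lies within the wild-type range at 4 positions, above it at 2 and below it at 5.

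The spread among wild-type replicates at these 11 positions was tested on the read counts, which did not enter the rule. Fisher's exact test (two-sided, each pair of replicates, adjusted by Benjamini-Hochberg over all 3797 positions listed in all 3 replicates) set the spread between replicates against counting error alone, with reads taken as independent molecules, and called 316 positions at an adjusted p of at most 0.05, a background of 8.32%. Of the 11 calls 3 were among them. hgrs-1, an endosomal sorting gene, had 1.27% in adr-2(-), and its 6.35% in wild-type replicate 1 and 0.594% in replicate 2 differed (adjusted p = 2.64e-07). aps-3 differed between replicates 2 and 3 (adjusted p = 0.0233), and C53H9.2 between replicates 1 and 3 (adjusted p = 0.0352). Without wild-type replicate 1, 2 or 3 the number was 0, 0 and 1, and a chi-square test of the 3 replicates together called 4, and 10.2% of all positions tested. glh-2 was not called in any pair (adjusted p = 1).

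By gene the calls were spread thinly. The 2472 calls given a gene fell in 1767 genes, of which 1320 held 1 call, 313 held 2 and 134 held 3 or more. The 10 genes with the most calls held 84 of them (3.40%). None of these 84 was listed in a wild-type replicate, beside 1.80% of all calls and 0.597% of those with 1 edited read.

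F39C12.1 on the X held 13 calls, more than any other gene, all coding, at 7 to 33 reads of coverage. dpy-22, which encodes a Mediator subunit, and T28C6.7 held 9 each. lrk-1, a kinase gene of the LRRK family, mua-3, vab-10 and ver-3, which encodes a VEGF receptor-like protein, held 8 each, and sdc-3, a gene of sex determination and dosage compensation, C35E7.6 and Y76B12C.6 held 7 each. Most of these genes are long, and F39C12.1, vab-10 and mua-3 have 15617, 24099 and 12053 nt of exon. All 7 calls of Y76B12C.6 were intronic.

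Wild-type replicates 1, 2 and 3 had confident calls of their own in these genes, at other positions. F39C12.1 had 5, 9 and 3, dpy-22 had 7, 10 and 4, and C35E7.6 had 4, 26 and 3. mua-3 had 0 in all 3.

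Host genes were longer than all genes tested for expression and lower in level. Their median exonic length was 1891 nt, and 3438.5 nt for those with 3 or more calls, against 1469 nt over the 9779 genes whose mean level reached 10 normalized counts. Their median level was 255 normalized counts, against 793 for the genes tested and 14.5 over all 18206 genes with a level. The level depended on the region of the call, since the 1232 genes with a coding call had a median of 178 normalized counts and the 275 genes with an intronic call a median of 5086. Across the 1747 host genes with a level, the number of calls had a Spearman rho of 0.26 with exonic length and of 0.06 with level, given as a description across genes that share the same libraries.

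Calls were then counted by gene family. Over all 18206 genes with a level 9.60% held a call. Of 80 ribosomal protein genes (rpl-, rps-, rla-) 5 held 1 call each, although 3107 of their positions were listed and their median level was 76265 normalized counts. No call fell in the act-, tba-/tbb-, eef-1A, hsp- or rrn- genes. Histone genes (his-) had calls in 5 of 47, collagen genes (col-) in 7 of 125, major sperm protein genes (msp-) in 2 of 29 and vitellogenin genes (vit-) in 3 of 6. The unc- genes, named for uncoordinated movement and of varied function, had calls in 25 of 90. None of the calls in these families was listed in wild type, beside 53 of 2451 calls over all genes with a level.

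Calls also fell in marker genes of cell types. Of 24 marker genes of other cell types 5 held 8 calls, and of the 12 germline marker genes 4 held 5. The muscle myosin genes myo-3 and unc-54 held 3 calls and 1 call, the yolk gene vit-6 held 1, the neuronal gene rab-3 held 1 and the sheath gene lim-7 held 2. myo-3 had 631 normalized counts in adr-2(-) replicate 1 and 109 and 66.7 in the other adr-2(-) replicates, and 56.8, 114 and 67.7 in wild type. adr-2(-) replicate 1 gave more than 50% of the adr-2(-) reads of 167 host genes (9.74% of 1715), which held 210 calls (6.65%), and of 10.3% of all genes tested. A merged list cannot be split by library, so the part of that replicate in single calls was not tested.

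Levels of the host genes were compared between the strains with limma. Among the host genes with enough reads to test, 1715 of 1747, 5 were higher in adr-2(-) and 2 lower (0.408% in all), against a background of 0.297% of 9779 genes, 0.205% higher and 0.092% lower. The median log2 fold change was 0.03 over host genes and 0.00 over all genes tested. Host genes on the X (366), with a 3′ UTR call (236) and with an intronic call (273) gave 0 calls with limma. All 1195 tested genes on the X also gave 0. In these host groups 16, 32 and 45 genes had an unadjusted limma p under 0.05. That share over all genes tested was not counted, so these counts have no background and cannot be read as a trait of the groups. edgeR called 0 in each host group (0.194% of all genes tested). DESeq2 called 3 host genes on the X, 3 with a 3′ UTR call and 0 with an intronic call. It called 14 of all 1195 tested genes on the X. Without adr-2(-) replicate 3 or wild-type replicate 1 the 7 called genes became 2, and without wild-type replicate 2 they became 4. Without adr-2(-) replicate 2 the balance turned, with 3 higher and 5 lower among host genes and 20 and 44 among all genes tested. DESeq2 on the recovered reads called 24 host genes higher and 3 lower, 1.57% of them against 1.19% of all genes tested.

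Of the 7, adr-2, the deleted gene, fell with a log2 fold change of -6.15 (SE 0.24, adjusted p = 5.45e-06). Its 1 call, at III:7232641 in coding sequence, was 1 edited read of 10, and no wild-type replicate listed it.

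mua-3, which encodes a transmembrane protein that anchors the cytoskeleton of the epidermis, was higher in adr-2(-). It had 474, 590 and 563 normalized counts in adr-2(-), against 101, 94.7 and 114 in wild type (log2 fold change 2.38, SE 0.16, adjusted p = 0.000323), and all 14 alternatives called it. The groups did not overlap, but limma chose the gene on these same values. Its 8 calls each had 1 edited read, at 6 to 23 reads of coverage, and the part of the higher level in how many positions were listed was not tested.

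gcy-18, a receptor guanylyl cyclase gene known from a thermosensory neuron, had 102, 102 and 89.6 normalized counts in adr-2(-), against 25.3, 23.7 and 24.2 in wild type (log2 fold change 1.96, SE 0.29, adjusted p = 0.0342). Y73B6BL.12 had 127, 279 and 418 in adr-2(-), against 22.1, 49.7 and 36.8 in wild type (log2 fold change 2.80, SE 0.45, adjusted p = 0.0482). Both passed narrowly, and gcy-18 was called in 6 and Y73B6BL.12 in 7 of 14 alternatives; gcy-18 missed the threshold when any 1 library was left out and Y73B6BL.12 in 5 of 6 such fits. WBGene00021662 had 71.1, 66.5 and 64.4 in adr-2(-), against 220, 247 and 180 in wild type (log2 fold change -1.65, SE 0.21, adjusted p = 0.0168) and was called in 11 of 14 alternatives, missing without adr-2(-) replicate 3 or wild-type replicate 1 or 2.

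The mitochondrially encoded host genes were both higher in adr-2(-), which was not particular to genes with a call. The 14 mitochondrially encoded genes tested had median levels of 25559, 14093 and 18166 normalized counts in adr-2(-), against 7105, 8130 and 7557 in wild type. WBGene00010964 had 243046, 162584 and 184077 normalized counts in adr-2(-), against 78310, 76597 and 58939 in wild type (log2 fold change 1.45, SE 0.16, adjusted p = 0.00743). COX3, a subunit gene of cytochrome c oxidase, had 85032, 46372 and 51859 in adr-2(-), against 19510, 20165 and 15627 in wild type (log2 fold change 1.69, SE 0.20, adjusted p = 0.0099). They were called in 12 and 11 of 14 alternatives, with adjusted p up to 0.0575 and 0.0978: both missed without adr-2(-) replicate 3 or wild-type replicate 1, and COX3 also without wild-type replicate 3. COX3 held 1 call, 1 edited read of 16 at MtDNA position 5740, which was in no wild-type list. The other 4 mitochondrial calls lay on the minus strand, opposite a gene, with 1 edited read of 13 to 20 each.

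**Figure D5:**
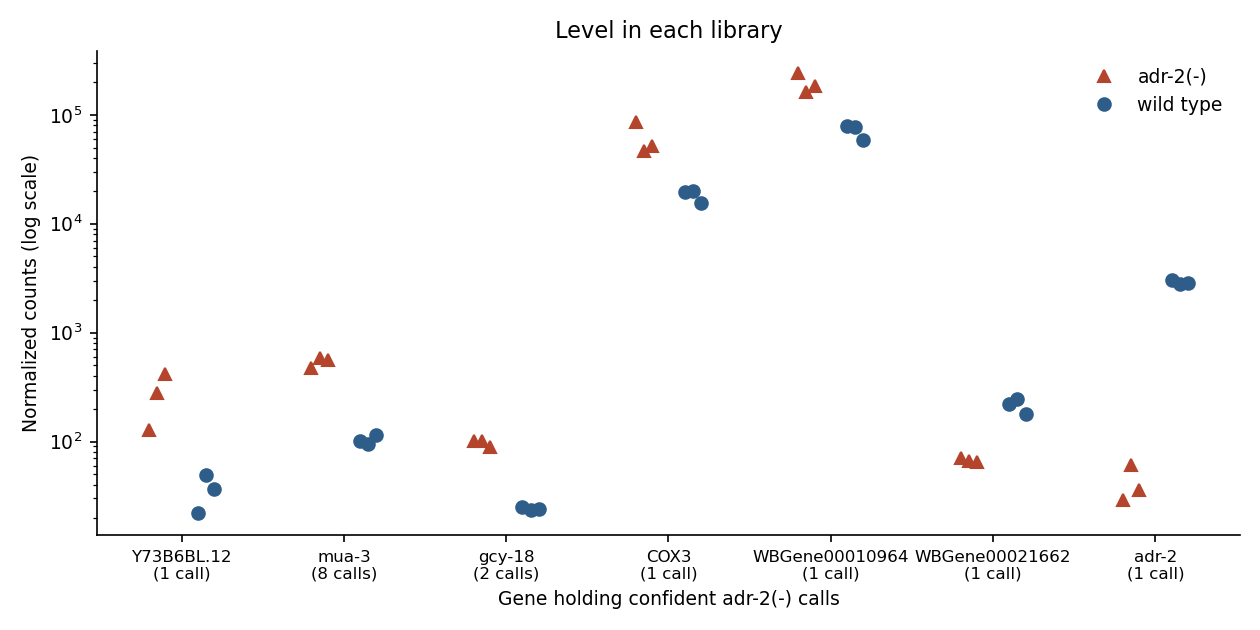
Normalized counts (y axis, log scale) in each library for the 7 host genes called by limma, with the number of confident adr-2(-) calls they hold: triangles, the 3 adr-2(-) libraries; circles, the 3 wild-type libraries. In each of the 7 genes the adr-2(-) and wild-type points do not overlap, but limma chose the genes on these same values. How many of all genes tested do not overlap was not counted. adr-2 and WBGene00021662 are the 2 that are lower in adr-2(-).

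Genes with many calls or many edited reads mostly showed no called change in level. F39C12.1 had 1583, 1869 and 2085 normalized counts in adr-2(-) and 1627, 1992 and 1953 in wild type (log2 fold change -0.01, SE 0.12, adjusted p = 0.979). dpy-22 (adjusted p = 0.747), vab-10 (0.664), glh-2 (0.462) and F10E7.2 (0.769) were not called either.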

How the data were processed

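Per the study's methods, reads were aligned to the WS275 genome with STAR 2.7.10b and A-to-G editing was called with SAILOR. The deposited lists give, for each position with a mismatch, the coverage, the edited share and a confidence score. The authors deposited 1 list per wild-type replicate and 1 adr-2(-) list named as merged, whose making is not given in the sources used here; its confidence follows from the merged coverage. The deposited expression signal is gene counts divided by DESeq2 size factors. All values (100%) were whole multiples of 1 read within 0.01. The authors' fold changes and p-values in that table were not used.

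Edited reads were coverage times share, rounded, and stand for reads with A-to-G, whatever its origin. Positions were matched by chromosome, position and strand. Regions are the deposited ones. Codon, exon, strand and symbol came from an Ensembl annotation of WBcel235 (96.7% of calls had the same region in both). Expression was tested with limma 3.58.1 (R 4.3.3) on log2(normalized count + 1) with a trend, for genes averaging 10 or more; calls needed an adjusted p up to 0.05 and a log2 change of 0.5 or more either way. edgeR 4.0.16 and DESeq2 1.42.0 on recovered reads were alternatives. Whether replicates came from separate cultures is not given in the sources used here, so p-values measure the spread between these libraries. Named genes were the 10 with most calls, the 10 calls with the highest share at 20 or more reads, the 10 calls with most edited reads, the calls confident in all 3 wild-type replicates and the host genes called by limma; F48E8.4, hgrs-1, smg-6, dcp-66, threshold and marker examples were named after their values were seen. Members and lists were chosen with earlier results of these data known. Tests were tried on simulated data. No genome sequence was used here.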

Additional observations from a re-analysis of the deposited data

Results flagged for a closer look

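Positions with the mismatch in every read have a deposited confidence of 0 and so stand outside the confident calls. The adr-2(-) list held 7 of them, 5 on chromosome III, against 588, 381 and 444 in wild-type replicates 1, 2 and 3. Of the 7, 3 were in at least 1 wild-type list, also at 100%, and 4 were in none, which is why they are given here. These were a coding position of teg-1 at III:11316778 with 346 of 346 reads, an exonic position of WBGene00018852 at I:10787317 with 48 of 48, a 3′ UTR position of brc-1, the BRCA1 relative, at III:3853131 with 30 of 30, and an intergenic position at III:4282041 with 5 of 5. A list names only positions with a mismatch, so coverage of these in wild type is not known from it, and the reason for the difference was not tested.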

How the results depend on the processing

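The number of confident adr-2(-) calls, 3160, was 5927 at a minimum confidence of 0.5, 1385 at 0.9, 128 at 0.99, 1170 with at least 20 reads of coverage and 152 with at least 3 edited reads. The share listed in at least 1 wild-type replicate was 2.67% at 0.5, 10.9% at 0.99, 3.68% with 20 reads, 19.7% with 3 edited reads and 1.30% when the wild-type call also had to be confident; leaving out 1 replicate gave 1.08% to 1.55%. The share listed in all 3 was 3.91% at 0.99, 0.769% with 20 reads and 4.61% with 3 edited reads. The share within 50 nt of another call was 7.73% at 0.5, 1.73% at 0.9, 0% at 0.99, 3.25% with 20 reads and 0% with 3 edited reads; it was 1.30% within 10 nt and 6.68% within 100 nt. The 3′ UTR share was 10.6% at 0.5, 10.2% at 0.99, 9.74% with 20 reads, 9.87% with 3 edited reads, 7.15% by the reference annotation and 11.5% with each gene counted as 1. The calls that differed between wild-type replicates (3) were 0 to 1 without 1 replicate. Host genes called by limma (7) were 2 to 9 without 1 library and 27 with DESeq2. With a replicate block they were 6. The replicate numbers were not used as pairs in the main fit. Deviations of adr-2(-) and wild-type libraries with the same number correlated at 0.03, -0.22 and 0.38, and only replicate 3 of adr-2(-) matched its own number best. Deviations within a group sum to 0, so these correlations cannot settle whether libraries with the same number belong together. The cause of the changes between settings was not tested. Of 98 alternatives of the fold changes of the 7 called host genes, 23 lost the call and 0 changed sign. The planned comparison of sequence around the calls was not run, because no genome sequence was used here. Depth limits the calls with 1 edited read, and the adr-2(-) list has no replicates.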
